A study of Mus musculus with 18 samples.

Results

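The transplant contrast was examined in donor T cells from Wapl KO mice. Allogeneic Wapl KO T cells were compared with syngeneic Wapl KO T cells by total RNA sequencing on day 7 after haematopoietic stem cell transplantation, 3 libraries against 3. These 6 libraries were taken by their labels from the 12 libraries with a matched column in the deposited count table, out of 18 samples that the labels describe, and every gene of the table was considered. Donors were C57BL/6 mice (CD45.2), per the labels female and 8 to 12 weeks old, and the KO cells came from Wapl KO donors whose Cre line, deleted exons and sex are not separately given. Syngeneic recipients are described as B6.SJL-Ptprca Pepcb/BoyJ mice, which carry CD45.1, and were given 9.5 Gy and 8500000 splenic T cells. Allogeneic recipients are described as CByJ.SJL(B6)-Ptprca/J mice, or as BALB/c in the sample labels, and were given 8 Gy in a split dose and 1000000 splenic T cells. All recipients also received 5000000 marrow cells depleted of T cells. The cell type label of the syngeneic KO samples names CByJ.SJL(B6)-Ptprca/J as the recipient, against their transplant label, which was used here. The effects of recipient strain, radiation dose and T cell dose cannot be told apart from that of the allogeneic setting. Donor cells were sorted from the spleens of the recipients by viability and by staining for CD3 and CD45.2, and each library holds a pool of 2 to 4 mice.

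Wapl removes cohesin, the ring complex that holds sister chromatids together and extrudes chromatin loops, from chromosomes. In an allogeneic recipient, donor T cells meet foreign major histocompatibility antigens, divide, leave the naive state and turn into killer and helper effectors that can cause graft-versus-host disease. In a syngeneic recipient they expand mainly because the host has been emptied of lymphocytes. The contrast asks which genes separate these settings in Wapl KO donor cells. In sorted bulk libraries, fewer cells of a type and less RNA per cell cannot be told apart.

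Library totals ranged from 45965659 to 66504730 expected counts over the 6 KO libraries. The first principal component of log2 CPM (counts per 1000000 counts of the library, on TMM-scaled library sizes) held 50.6% of the variance and separated the groups. The second held 27.2%, and syngeneic replicate 1 stood apart at its upper end, at 83.4 where the next library was at 17.3. At the lower end lay allogeneic replicate 3 at -56.7 and syngeneic replicate 3 at -46.0. Syngeneic replicate 1 had 31.9% of its counts in 3 ribosomal RNA genes, and the results below name it where they rest on it. The share in these genes was 26.6 ± 4.65% (SD, n = 3) in syngeneic and 16.8 ± 1.02% (SD, n = 3) in allogeneic KO libraries, a difference of -9.78 percentage points (exact permutation test, two-sided p = 0.1, the smallest that 3 against 3 allows). Wapl, listed as Wapal at chr14:34673928-34747983 (GRCm38, GENCODE M21), was at 127, 139 and 137 CPM in the syngeneic libraries and 145, 124 and 151 CPM in the allogeneic libraries, and the contrast did not pass the test (log2 fold change 0.06 ± 0.11 (SE), adjusted p = 0.75). The WT libraries held 170.1, 211 and 183 CPM (syngeneic) and 169, 156 and 158 CPM (allogeneic), above every KO library. A gene-wide count is no full check of a deletion whose exons are not given. Cd3e, a subunit of the CD3 complex used for the sort, was at 638, 434 and 402 CPM in the syngeneic libraries and 639, 715 and 547 CPM in the allogeneic libraries. Its groups overlapped, and the contrast did not pass the test (log2 fold change 0.37 ± 0.18 (SE), adjusted p = 0.166, 0.01 without syngeneic replicate 1). The summed level of 4 Y-linked genes, given that the labels describe female donors, was 32.3, 99.4 and 116 CPM in syngeneic and 31.4, 70.1 and 138 CPM in allogeneic KO libraries, against 0.934, 1.75 and 1.31 CPM in syngeneic and 1.04, 0.733 and 0.913 CPM in allogeneic WT libraries.

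Of 18447 genes tested, 2439 (13.2%) were higher and 2061 (11.2%) lower in allogeneic KO T cells (edgeR quasi-likelihood test, Benjamini-Hochberg adjusted p under 0.05). A change of at least 2-fold (a log2 fold change of 1 or more in size) was fitted for 1096 of the higher and 1255 of the lower genes. The groups of 3 did not overlap for 33.6% of tested genes. Higher genes made up 54.2% of the calls, and 43.8% (2012 higher, 2585 lower) under upper quartile scaling, which moved the median log2 fold change by -0.11. Without syngeneic replicate 1, 3277 (17.4%) were higher and 2120 (11.2%) lower, and without syngeneic replicate 2 the number higher fell to 1620. The median log2 fold change over all tested genes was -0.02. Beside the shares of 13.2% and 11.2%, members called higher were frequent among integrins, killing genes and inhibitory and costimulatory receptors, and members called lower among naive T cell, ribosome biogenesis and interferon-stimulated genes, as the plot of list members shows. These lists are described by counts, to be read beside the same shares, with no test of a list. Some genes stand in several lists, so counts of different lists can hold the same gene.

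**Figure D1:**
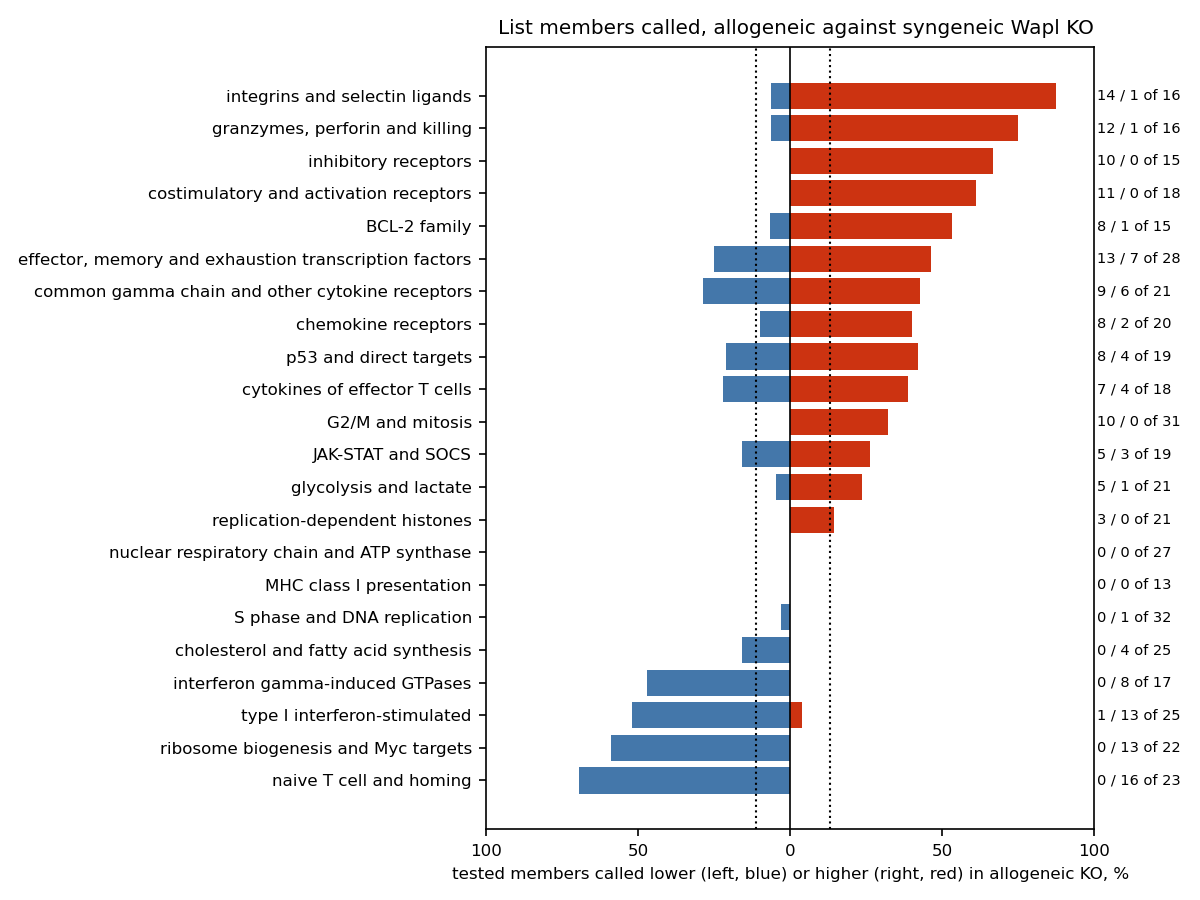
Share of the tested members of 22 gene lists called higher (red, right of 0) or lower (blue, left of 0) in allogeneic than in syngeneic Wapl KO T cells, in percent, with the numbers higher, lower and tested at the right. The dotted lines mark the shares over all 18447 tested genes, 13.2% higher and 11.2% lower. Integrins (14 of 16) reach furthest to the right and naive T cell genes (16 of 23) furthest to the left.

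The genes of cytotoxic granules were far higher in allogeneic KO T cells. Of 16 tested killing genes, 12 rose and 1 fell, with a median log2 fold change of 2.54. Gzma, a tryptase-like granzyme, was at 22.1, 38.98 and 21.2 CPM in the syngeneic libraries and 1092, 2169 and 976 CPM in the allogeneic libraries. The lowest allogeneic library lay far above the highest syngeneic one (log2 fold change 5.69 ± 0.39 (SE), adjusted p = 9.71e-07). Gzmb, the granzyme that activates caspases in target cells, was at 178, 241 and 112 CPM in the syngeneic libraries and 1842, 2773 and 1277 CPM in the allogeneic libraries (log2 fold change 3.47 ± 0.33 (SE), adjusted p = 1.22e-05). Prf1, the pore-forming perforin that lets granzymes enter the target, was at 71.2, 60.98 and 48.9 CPM in the syngeneic libraries and 344, 436 and 275 CPM in the allogeneic libraries (log2 fold change 2.54 ± 0.19 (SE), adjusted p = 1.4e-06). All of these libraries separated by group. Gzmk rose by 2.54 log2 units, and Fasl, the ligand of the death receptor Fas, by 2.09. The granzyme inhibitors Serpinb6b, Serpinb9 and Serpinb9b, which shield the killer cell from its own granules, rose by 3.46, 2.87 and 5.34. The rare granzyme genes Gzmc and Gzmf rose by 4.03 and 5.30, with allogeneic replicate 3 lowest in its group, at 5.14 CPM of Gzmc where the other allogeneic libraries had 27.9 and 23.04 CPM. Gzmm, a granzyme of innate-type lymphocytes, went the other way, at 64.1, 38.3 and 42.002 CPM in the syngeneic libraries and 9.36, 14.2 and 9.97 CPM in the allogeneic libraries (log2 fold change -2.10 ± 0.21 (SE), adjusted p = 1.33e-05). Granzymes and serpins form families of similar sequence, so reads may be shared between members.

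Inhibitory receptors of activated and exhausted T cells rose together with costimulatory receptors. Of 15 inhibitory receptors, 10 were higher and 0 lower (median 1.89), and of 18 costimulatory and activation receptors, 11 were higher and 0 lower (median 0.86). Lag3, a CD4-related receptor for MHC class II at chr6:124904361-124911705, was at 26.2, 24.7 and 22.2 CPM in the syngeneic libraries and 238, 233 and 189.9 CPM in the allogeneic libraries. The replicates lay close together and the groups far apart (log2 fold change 3.18 ± 0.12 (SE), adjusted p = 9.91e-09). Pdcd1, which encodes PD-1, was at 47.4, 37.3 and 30.5 CPM in the syngeneic libraries and 396, 592 and 296 CPM in the allogeneic libraries (log2 fold change 3.48 ± 0.24 (SE), adjusted p = 6.45e-07). Tigit, a receptor for nectin-type ligands, was at 22.2, 18.9 and 14.8 CPM in the syngeneic libraries and 173, 189.5 and 144 CPM in the allogeneic libraries (log2 fold change 3.18 ± 0.16 (SE), adjusted p = 7.84e-08). Each of the 3 receptors was higher in every allogeneic than in every syngeneic library. Havcr2, which encodes TIM-3, rose by 3.40, Cd244 by 3.40, Ctla4 by 2.33 and Entpd1, the ecto-ATPase CD39, by 2.30. Btla at -0.09, Cd160 at 0.47 and Cd96 at 0.60 did not pass the test. Among costimulators, Icos, the inducible relative of CD28, was at 43.03, 44.1 and 40.3 CPM in the syngeneic libraries and 172, 159 and 173 CPM in the allogeneic libraries (log2 fold change 1.98 ± 0.11 (SE), adjusted p = 1.09e-07). Il2ra, the high-affinity interleukin-2 receptor chain, rose by 1.86, Tnfrsf9 (4-1BB) by 1.88, Cd80 by 2.96, Tnfrsf1b by 1.22, Cd28 by 0.88 and Cd44 by 0.73.

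**Figure D2:**
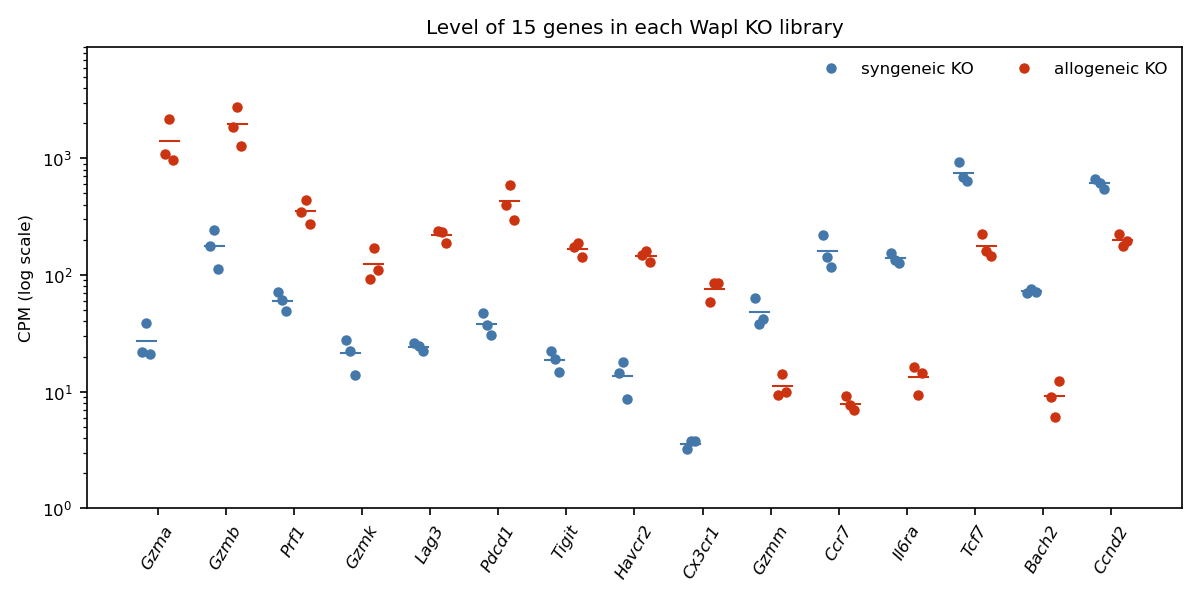
Level of 15 genes in CPM (log axis) in the 3 syngeneic (blue) and 3 allogeneic (red) Wapl KO libraries. Points are libraries and lines are group means. For all 15 genes the red and blue points do not overlap, with Gzma to Cx3cr1 higher in the allogeneic libraries and Gzmm to Ccnd2 higher in the syngeneic ones. The genes shown were picked from those named in the text. The groups of 3 did not overlap for 33.6% of all tested genes.

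Genes of naive T cells and of entry into lymph nodes were lower in the allogeneic setting. Of 23 members, 16 fell and 0 rose (median -1.22). Ccr7, the receptor that guides T cells into the node, was at 218, 144 and 118 CPM in the syngeneic libraries and 9.15, 7.66 and 6.96 CPM in the allogeneic libraries (log2 fold change -4.34 ± 0.25 (SE), adjusted p = 2.42e-07). Tcf7, the transcription factor TCF-1 of naive and memory cells, was at 938, 695 and 635 CPM in the syngeneic libraries and 227, 160.2 and 145 CPM in the allogeneic libraries (log2 fold change -2.09 ± 0.22 (SE), adjusted p = 2.18e-05). Syngeneic replicate 1 was the highest of the 6 libraries for both genes, and the groups did not overlap. Il6ra fell by 3.38, Nsg2 by 3.50, Dapl1 by 4.53, Tdrp by 4.01 and Rapgef4 by 3.83. Il7r, the interleukin-7 receptor chain, did not pass the test, at 132, 126 and 110.1 CPM in the syngeneic libraries and 108, 142 and 189 CPM in the allogeneic libraries (log2 fold change 0.25 ± 0.20 (SE), adjusted p = 0.372). Without syngeneic replicate 1, 14 members were lower and 2 higher.

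Transcription factors moved in both directions. Of 28 factors, 13 rose and 7 fell. Id2, which blocks E proteins and favours effector cells, was at 84.8, 82.2 and 70.02 CPM in the syngeneic libraries and 309.8, 399 and 303 CPM in the allogeneic libraries (log2 fold change 2.09 ± 0.13 (SE), adjusted p = 3.71e-07). Id3, an inhibitor of the same kind found in naive and memory cells, fell by 1.58. Bhlhe40, needed for effector cytokine output, rose by 2.13, and Prdm1, which encodes Blimp-1, by 1.87. Tox, a driver of the exhausted state, was at 75.6, 58.7 and 60.96 CPM in the syngeneic libraries and 148, 151 and 131 CPM in the allogeneic libraries (log2 fold change 1.14 ± 0.12 (SE), adjusted p = 1.7e-05). Tbx21, which encodes T-bet, rose by 1.16, whereas its relative Eomes was at 175, 172 and 154 CPM in the syngeneic libraries and 86.5, 70.8 and 70.8 CPM in the allogeneic libraries (log2 fold change -1.14 ± 0.16 (SE), adjusted p = 0.0002). These 2 T-box genes thus moved in opposite directions in the same libraries. Bach2, a repressor of effector genes, fell by 2.98, and Lef1 by 1.08. Hif1a, Maf and Tox2 rose by 1.29, 1.69 and 1.85.

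Cytokine genes moved in both directions, 7 up and 4 down of 18. Csf1, the macrophage growth factor, was at 3.92, 4.297 and 5.53 CPM in the syngeneic libraries and 120.2, 99.5 and 90.8 CPM in the allogeneic libraries (log2 fold change 4.50 ± 0.23 (SE), adjusted p = 7.84e-08). Csf2, which encodes GM-CSF, rose by 3.14 but lay under 10 CPM in each library. Ifng, the type 1 effector cytokine, was at 24.7, 15.2 and 6.35 CPM in the syngeneic libraries and 39.9, 72.1 and 33.6 CPM in the allogeneic libraries (log2 fold change 1.65 ± 0.40 (SE), adjusted p = 0.0122), and with the 6 KO libraries alone its adjusted p was 0.0658. Il4 and Il13, the type 2 cytokines, rose by 3.37 and 3.65, though no library exceeded 4.997 CPM of either. Tnf and its relatives Lta and Ltb fell, with Tnf at 57.4, 24.1 and 20.6 CPM in the syngeneic libraries and 10.9, 14.9 and 10.1 CPM in the allogeneic libraries (log2 fold change -1.51 ± 0.33 (SE), adjusted p = 0.00548), Lta lower by 2.42 and Ltb lower by 0.99. Fasl, of the same family, was higher, as given above. Il10 did not pass the test (log2 fold change 0.69, adjusted p = 0.293).

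Genes of several helper lineages rose. Type 1 genes had 5 of 8 members higher and 1 lower, type 2 genes 5 of 9 higher and 2 lower (1 lower without allogeneic replicate 2), and type 17 genes 4 of 7 higher and 0 lower (2 higher without syngeneic replicate 2). Il12rb2, the signalling chain of the interleukin-12 receptor, was at 12.2, 22.1 and 15.4 CPM in the syngeneic libraries and 111, 82.7 and 92.6 CPM in the allogeneic libraries (log2 fold change 2.53 ± 0.20 (SE), adjusted p = 2.15e-06). Il1rl1, the interleukin-33 receptor ST2, was at 6.61, 7.05 and 9.102 CPM in the syngeneic libraries and 108, 104 and 95.4 CPM in the allogeneic libraries (log2 fold change 3.76 ± 0.28 (SE), adjusted p = 1.76e-06). Gata3, the type 2 factor, rose by 1.14, and Ahr and Rora, which act in type 17 cells among others, by 2.50 and 2.00. Il23r, the interleukin-23 receptor, was higher by 2.06 (adjusted p = 0.0287), a call lost without syngeneic replicate 2 (0.0997), without syngeneic replicate 3 (0.0981) and without allogeneic replicate 3 (0.064), with the adjusted p of each fit in brackets. Such statements on the call of a gene cover every alternative but the replicate block, whose effect is given with the alternatives. Counts of list members are given for some of the alternatives only. Of 7 follicular helper genes 2 were higher and 1 lower, the latter Pou2af1, a coactivator of B cells and follicular helper cells, by 1.498 (adjusted p = 0.0116, and 0.0506 with the 6 KO libraries alone, where 0 were lower; 2 were lower without allogeneic replicate 1). Foxp3, which defines regulatory T cells, was at 28.3, 25.5 and 38.4 CPM in the syngeneic libraries and 29.02, 23.1 and 15.9 CPM in the allogeneic libraries and did not pass the test (log2 fold change -0.44 ± 0.22 (SE), adjusted p = 0.171). Other genes of the regulatory T cell list moved in both directions, 5 higher and 3 lower of 14, with Nrp1 up by 2.33, Capg up by 1.57 and Gpr83 down (adjusted p = 0.0122, and 0.061 with the 6 KO libraries alone, where 4 members were higher and 1 lower).

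Receptors for cytokines moved in both directions, with 9 of 21 up and 6 down. Il18r1 and Il18rap, which together form the interleukin-18 receptor, rose by 1.94 and 1.61. Il6st, the gp130 chain that signals with Il6ra, was at 208, 225 and 216 CPM in the syngeneic libraries and 68.7, 52.2 and 61.98 CPM in the allogeneic libraries (log2 fold change -1.83 ± 0.15 (SE), adjusted p = 3.1e-06). Il4ra fell by 1.54. The interferon gamma receptor chains moved apart, Ifngr1 up by 1.20 and Ifngr2 at 13.7, 10.7 and 11.8 CPM in the syngeneic libraries and 2.25, 1.57 and 2.88 CPM in the allogeneic libraries (log2 fold change -2.43 ± 0.21 (SE), adjusted p = 4.91e-06). Downstream, 5 of 19 JAK-STAT and SOCS genes were higher and 3 lower (3 higher and 2 lower without syngeneic replicate 2, and 3 and 3 without allogeneic replicate 1). Socs3, the feedback inhibitor of gp130 signalling, was at 143, 121 and 80.4 CPM in the syngeneic libraries and 60.1, 55.1 and 50.1 CPM in the allogeneic libraries (log2 fold change -1.06 ± 0.22 (SE), adjusted p = 0.00355). Socs5 fell by 0.61. Jak2, Stat4 and Cish rose by 0.51, 0.61 and 0.58.

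Most integrin genes were higher. Integrins and selectin ligand genes had 14 of 16 members higher and 1 lower (median 1.00), and chemokine receptors 8 of 20 higher and 2 lower (1 lower without allogeneic replicate 2). Itga1, the collagen-binding integrin of tissue-resident T cells, was at 1.27, 2.77 and 4.64 CPM in the syngeneic libraries and 87.3, 95.2 and 109 CPM in the allogeneic libraries (log2 fold change 5.07 ± 0.53 (SE), adjusted p = 7.44e-05). Itga4, the alpha chain of the VLA-4 and gut-homing integrins, was at 335, 339.9 and 340.2 CPM in the syngeneic libraries and 958, 997 and 1406 CPM in the allogeneic libraries (log2 fold change 1.73 ± 0.17 (SE), adjusted p = 1.22e-05). Itgb1, its VLA-4 partner, rose by 1.31 and Itgb3 by 1.60. Itgae, the E-cadherin-binding integrin, fell by 1.66. Among chemokine receptors, Cx3cr1, a mark of cytotoxic effectors, was at 3.26, 3.76 and 3.77 CPM in the syngeneic libraries and 58.7, 85.5 and 84.97 CPM in the allogeneic libraries (log2 fold change 4.41 ± 0.20 (SE), adjusted p = 4.65e-08). Cxcr6 rose by 2.99, Ccr2 by 1.14 and Ccr9, the gut-homing receptor, by 1.54. Xcr1, the receptor of XCL1, rose by 1.97 and S1pr4, a sphingosine phosphate receptor, by 1.01. Cxcr3 did not pass the test (log2 fold change 0.48, adjusted p = 0.0572), and was called without syngeneic replicate 1 (0.00562), without allogeneic replicate 1 (0.0475), under RLE scaling (0.0474), without the ribosomal RNA genes (0.0428) and by DESeq2 (0.0333). Of 10 chemokines, 2 were higher, Ccl1 by 1.83 and Ccl3 by 1.29 (adjusted p of Ccl3 0.0162, and 0.0589 without allogeneic replicate 2).

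Changes were ranked among called genes of at least 5 CPM in the higher group whose groups did not overlap. Predicted and clone-named genes, receptor and immunoglobulin segments, and ribosomal and small RNAs were left out of the ranking. The greatest fitted rise was that of Klrb1b, an inhibitory C-type lectin receptor of the NK gene complex at chr6:128813706-128826331. It was at 0.0402, 0.172 and 0.238 CPM in the syngeneic libraries and 41.1, 59.5 and 33.8 CPM in the allogeneic libraries (log2 fold change 8.19 ± 0.56 (SE), adjusted p = 1.37e-06). Erc2, a presynaptic active zone scaffold in neurons, was at 0, 0.0344 and 0.0992 CPM in the syngeneic libraries and 5.94, 6.24 and 5.64 CPM in the allogeneic libraries. Gldc, the glycine decarboxylase of the mitochondrial glycine cleavage system, was at 0.362, 0.498 and 0.198 CPM in the syngeneic libraries and 31.6, 37.2 and 22.2 CPM in the allogeneic libraries (log2 fold change 6.40 ± 0.30 (SE), adjusted p = 4.65e-08). These 3 genes were near 0 in all syngeneic KO libraries, so their fitted folds rest on few counts there. Dpysl3 and Crmp1, collapsin response mediators that act in axon guidance, rose by 6.16 and 2.24. Epha3, an ephrin receptor, rose by 4.68 (adjusted p = 0.00933, and 0.073 with the 6 KO libraries alone). Serpinb1b, a neutrophil elastase type inhibitor, rose by 5.58, P2ry12, the platelet and microglial ADP receptor, by 4.79, and the chitinase family genes Chil3 and Chit1 by 5.60 and 4.92. The smallest p among the ranked rises was that of Spock2, a secreted proteoglycan gene at chr10:60106219-60135198, at 8.38, 7.49 and 8.65 CPM in the syngeneic libraries and 148, 116 and 129.9 CPM in the allogeneic libraries (log2 fold change 4.01 ± 0.14 (SE), adjusted p = 7.26e-09). St14, the membrane protease matriptase, rose by 2.72.

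The greatest fall under the same rule was that of Dntt, the terminal transferase that adds bases during receptor gene joining, at 4.94, 7.03 and 6.52 CPM in the syngeneic libraries and 0.117, 0.0667 and 0.0579 CPM in the allogeneic libraries (log2 fold change -6.28 ± 0.32 (SE), adjusted p = 7.84e-08). Sh3pxd2a, a scaffold of invasive membrane protrusions at chr19:47260174-47464401, had the smallest p of the ranked falls and was at 71.1, 77.7 and 73.5 CPM in the syngeneic libraries and 2.56, 2.24 and 2.58 CPM in the allogeneic libraries (log2 fold change -4.92 ± 0.14 (SE), adjusted p = 9.35e-10). The 3 replicates of each group lay within a narrow range, which a choice by the smallest p favours. The solute carriers Slc16a5 and Slc6a19 fell by 5.54 and 5.34. Nrp2, the neuropilin that binds class 3 semaphorins, was at 20.3, 16.7 and 22.9 CPM in the syngeneic libraries and 1.06, 0.851 and 1.35 CPM in the allogeneic libraries (log2 fold change -4.20 ± 0.21 (SE), adjusted p = 7.84e-08). Igfbp4, an insulin-like growth factor binding protein gene of naive T cells, fell by 4.75. Samd3, Trim30c, Tmem108, Lypd6b, She and Sorcs2 fell by 3.48, 4.88, 4.88, 4.75, 4.70 and 4.33. Cnr2, the cannabinoid receptor of immune cells, fell by 2.96.

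Mitotic genes were among the rises. Of 31 G2/M genes, 10 were higher and 0 lower (median 0.51), whereas of 32 S phase genes 0 were higher and 1 lower (median 0.04). All 31 G2/M genes had a fitted log2 fold change above 0. Mitotic genes are held silent in resting cells by the DREAM complex and switched on by B-Myb and FOXM1, often through CCAAT boxes and the cell cycle gene homology region (CHR) near the start. The letters CCAAT, read on both strands in the 250 bases before the start, were in 20 of the 24 G2/M promoters of the RefSeq table (83.3%), in 16 of 26 S phase promoters (61.5%) and in 34.5% of all 27025 promoters. CHR letters (TTTGAA or TTCGAA) were in 33.3%, 19.2% and 17.4%, and 4 E2F forms (TTTCCCGC, TTTGGCGC, TTTCGCGC and TTTGCCGC) in 4.17%, 23.1% and 1.91%. Among the 7 promoters of G2/M genes called higher, 5 held CCAAT. The 150 bases before the start of the 3 called genes with the smallest p that the table holds follow, 5′ to 3′ on the gene's strand, RefSeq on GRCm38.p6, with CCAAT or its reverse complement in capitals. They show how the boxes lie near these starts.
Cdc25b, chr2:131186798-131186947, plus strand: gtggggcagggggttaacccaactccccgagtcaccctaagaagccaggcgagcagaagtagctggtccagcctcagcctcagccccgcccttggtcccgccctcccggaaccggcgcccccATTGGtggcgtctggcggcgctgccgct
Cenpa, chr5:30666736-30666885, plus strand: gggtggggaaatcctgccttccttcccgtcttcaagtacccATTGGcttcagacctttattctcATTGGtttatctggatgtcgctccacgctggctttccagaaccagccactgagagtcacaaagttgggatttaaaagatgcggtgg
Ccnb2, chr9:70421555-70421704, minus strand: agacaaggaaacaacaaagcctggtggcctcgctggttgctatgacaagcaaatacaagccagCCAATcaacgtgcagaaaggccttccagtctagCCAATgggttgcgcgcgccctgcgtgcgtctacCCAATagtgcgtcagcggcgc
Such matches describe letters and no binding was measured.

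Cdc25b, the phosphatase that activates CDK1 at mitotic entry, was at 149, 145 and 158 CPM in the syngeneic libraries and 383, 278 and 294 CPM in the allogeneic libraries (log2 fold change 1.08 ± 0.15 (SE), adjusted p = 0.000157). Its promoter holds 1 box in the window shown. Cenpa, the centromeric histone H3 variant, was at 79.4, 74.1 and 81.6 CPM in the syngeneic libraries and 158, 171 and 129.9 CPM in the allogeneic libraries (log2 fold change 0.97 ± 0.15 (SE), adjusted p = 0.000478), with 2 boxes. Ccnb2, a mitotic cyclin, was at 86.005, 64.9 and 73.3 CPM in the syngeneic libraries and 157, 172 and 106 CPM in the allogeneic libraries (log2 fold change 0.96 ± 0.19 (SE), adjusted p = 0.00305), with 3 boxes. For all 3 the groups did not overlap. Cdc25c rose by 0.89 and Birc5, which encodes survivin, by 0.78 (adjusted p = 0.0189, with the call lost without syngeneic replicate 2 (0.0808), without syngeneic replicate 3 (0.0604), without allogeneic replicate 1 (0.0752) and without allogeneic replicate 2 (0.0507)). Mki67, the proliferation antigen, did not pass the test, at 939, 1154 and 1174 CPM in the syngeneic libraries and 1916, 896 and 1435 CPM in the allogeneic libraries (log2 fold change 0.38 ± 0.25 (SE), adjusted p = 0.3), and Top2a had a log2 fold change of 0.10. The number of G2/M genes called higher depended on single libraries: it was 4 without syngeneic replicate 2, without syngeneic replicate 3 or without allogeneic replicate 1, and 21 without allogeneic replicate 3. The S phase gene called lower was E2f1, at 41.9, 40.6 and 42.3 CPM in the syngeneic libraries and 35.02, 26.7 and 26.1 CPM in the allogeneic libraries (log2 fold change -0.51 ± 0.13 (SE), adjusted p = 0.012), with 4 S phase genes lower without allogeneic replicate 1, and 1 higher and 1 lower without allogeneic replicate 3.

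**Figure D3:**
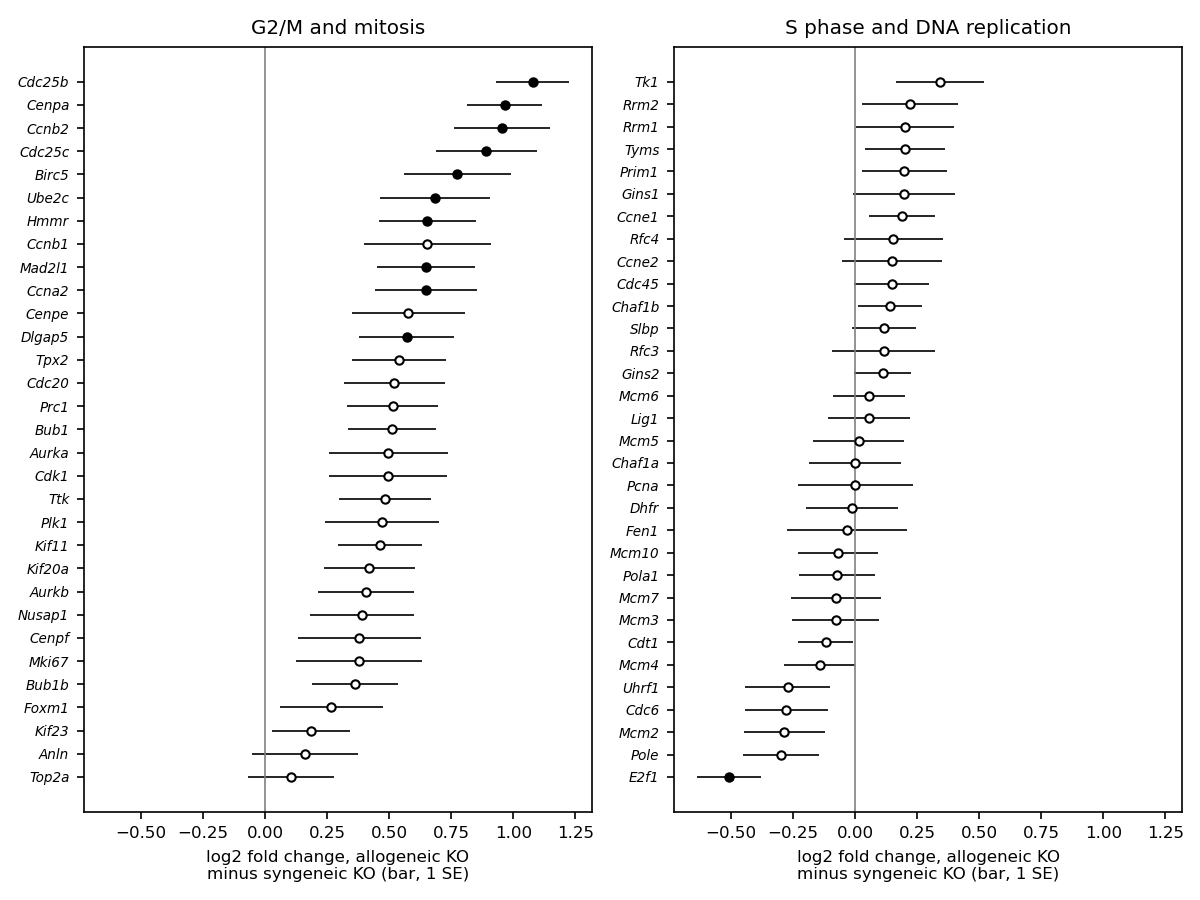
Log2 fold change (allogeneic minus syngeneic KO, bar 1 SE) of the 31 tested G2/M genes (left) and 32 tested S phase genes (right). Filled points passed the test. All G2/M points lie right of 0, 10 of them filled, while S phase points lie on both sides with E2f1 filled on the left.

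Of 12 D cyclin and CDK inhibitor genes, 2 were higher and 2 lower (1 lower without syngeneic replicate 2 or 3, or without allogeneic replicate 2 or 3). The shares among all tested genes were 13.2% higher and 11.2% lower. Ccnd2, the D cyclin induced early after stimulation, was at 664, 616 and 551 CPM in the syngeneic libraries and 225, 177 and 196 CPM in the allogeneic libraries (log2 fold change -1.62 ± 0.15 (SE), adjusted p = 9.16e-06). Cdkn2a, which encodes p16INK4a and p19ARF, was at 1.17, 1.41 and 1.63 CPM in the syngeneic libraries and 4.72, 5.47 and 3.86 CPM in the allogeneic libraries (log2 fold change 1.74 ± 0.23 (SE), adjusted p = 0.000153). It stayed at a low level in all libraries. Ccnd3 was lower by 0.38 (adjusted p = 0.037), a call lost without syngeneic replicate 1 (0.0699), without syngeneic replicate 2 (0.139), without syngeneic replicate 3 (0.0627), without allogeneic replicate 2 (0.136), without allogeneic replicate 3 (0.0881), with the 6 KO libraries alone (0.104) and with no filter on low counts (0.072). Cdkn2b rose by 1.48, and Cdkn1a, which encodes p21, did not pass the test (log2 fold change 0.49). Replication-dependent histone genes had 3 of 21 members higher, near the 13.2% higher among all tested genes, and a median of 0.60. This count was 0 without syngeneic replicate 2, syngeneic replicate 3 or allogeneic replicate 1, 1 without allogeneic replicate 2, 9 without syngeneic replicate 1 and 20 without allogeneic replicate 3. Their summed level was 6304, 4359 and 4917 CPM in syngeneic and 9335, 9645 and 4940.1 CPM in allogeneic libraries, so that allogeneic replicate 3 lay within the range of the syngeneic group. The members called were Hist1h2bj at 0.90, Hist1h1e at 0.74 and Hist1h1b at 0.83, with adjusted p of 0.0226, 0.0241 and 0.0477. The call was lost for Hist1h2bj without syngeneic replicate 2 (0.08), without syngeneic replicate 3 (0.0716), without allogeneic replicate 1 (0.0823), without allogeneic replicate 2 (0.072) and with the 6 KO libraries alone (0.0539). It was lost for Hist1h1e without syngeneic replicate 2 (0.0947), without syngeneic replicate 3 (0.0701), without allogeneic replicate 1 (0.106) and with the 6 KO libraries alone (0.059). For Hist1h1b it was lost without syngeneic replicate 2 (0.151), without syngeneic replicate 3 (0.138), without allogeneic replicate 1 (0.127), without allogeneic replicate 2 (0.143), with the 6 KO libraries alone (0.0856) and with no filter on low counts (0.0756).

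In each list of cohesin, cohesion and condensin genes, 1 gene was called higher and 0 lower, beside 13.2% higher and 11.2% lower among all tested genes. Lists this small do not set such counts apart from those shares. Among 13 cohesin, loader, releaser and Ctcf genes, 1 was higher and 0 lower (median 0.10), while 2 were higher without allogeneic replicate 2 and 1 was lower without syngeneic replicate 1 or allogeneic replicate 3. The gene called was Rad21, the kleisin that closes the cohesin ring, at 341, 277 and 274 CPM in the syngeneic libraries and 516, 454 and 362 CPM in the allogeneic libraries (log2 fold change 0.58 ± 0.15 (SE), adjusted p = 0.0135), and its call was lost without syngeneic replicate 2 (0.0627), without syngeneic replicate 3 (0.057), without allogeneic replicate 1 (0.057) and with the 6 KO libraries alone (0.0564). The ring subunit Smc3 was at 115, 111 and 111 CPM in the syngeneic libraries and 145, 108 and 131 CPM in the allogeneic libraries and did not pass the test (log2 fold change 0.19 ± 0.11 (SE), adjusted p = 0.223). Fitted values were 0.11 for Stag2, 0.16 for Ctcf and -0.07 for Nipbl, the loader. Of 9 cohesion and separase genes, Pttg1, which encodes securin, was higher by 0.60 (adjusted p = 0.0141), a call lost without syngeneic replicate 2 (0.0647), without syngeneic replicate 3 (0.0639) and with the 6 KO libraries alone (0.0677), and 2 members were higher without syngeneic replicate 1, allogeneic replicate 1 or allogeneic replicate 3. Of 8 condensin genes, Ncaph was higher by 0.51 (adjusted p = 0.0429), a call lost without syngeneic replicate 2 (0.131), without syngeneic replicate 3 (0.124), without allogeneic replicate 1 (0.182), with the 6 KO libraries alone (0.0823) and under upper quartile scaling (0.0747), and 2 members were higher without allogeneic replicate 2 or 3.

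Myc and the genes of ribosome assembly were lower. Of 22 members, 13 fell and 0 rose (median -0.59). Myc, the growth-promoting transcription factor, was at 206, 196 and 165 CPM in the syngeneic libraries and 93.2, 67.1 and 70.3 CPM in the allogeneic libraries (log2 fold change -1.30 ± 0.15 (SE), adjusted p = 3.74e-05). Polr1b, a subunit of RNA polymerase I, was at 66.01, 69.4 and 64.7 CPM in the syngeneic libraries and 34.6, 28.3 and 31.99 CPM in the allogeneic libraries (log2 fold change -1.08 ± 0.11 (SE), adjusted p = 1.92e-05). Srm, the spermidine synthase, fell by 1.23, Gnl3 by 0.92 and Dkc1, the pseudouridine synthase of small nucleolar particles, by 0.88. Rrp12, a ribosome export factor, fell by 0.84. The groups did not overlap for any of these. The ribosomal RNA share of the libraries was also lower in the allogeneic group, as given above, in ribosomal RNA depleted libraries, and its part in these values was not tested. Without the ribosomal RNA genes, 13 members were lower.

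Metabolic genes showed selected changes. Slc2a3, the high-affinity glucose transporter GLUT3, was at 67.8, 69.4 and 59.1 CPM in the syngeneic libraries and 168, 171 and 167 CPM in the allogeneic libraries (log2 fold change 1.37 ± 0.10 (SE), adjusted p = 9.35e-07). Slc2a1, which encodes GLUT1, was higher by 0.39 (adjusted p = 0.0398), a call lost without syngeneic replicate 2 (0.0966), without syngeneic replicate 3 (0.155), without allogeneic replicate 1 (0.0896), without allogeneic replicate 3 (0.0502), with the 6 KO libraries alone (0.0623), under upper quartile scaling (0.0781) and with no filter on low counts (0.061). Slc16a3, the lactate exporter MCT4, rose by 1.64 and Pfkp by 0.69. Pdk1, the kinase that closes the path of pyruvate into mitochondria, was at 182, 130.0 and 115 CPM in the syngeneic libraries and 24.96, 27.3 and 26.3 CPM in the allogeneic libraries (log2 fold change -2.44 ± 0.19 (SE), adjusted p = 1.8e-06). Ldha, the lactate dehydrogenase, did not pass the test (log2 fold change 0.16, adjusted p = 0.634). Over the list, 5 of 21 glycolytic genes were higher and 1 lower, and 3 were higher without syngeneic replicate 2, syngeneic replicate 3 or allogeneic replicate 1. None of 27 nuclear respiratory chain genes was called, with a median of 0.32. Without syngeneic replicate 1, 12 were higher, and without allogeneic replicate 3, 7 were higher. In cholesterol and fatty acid synthesis 0 of 25 were higher and 4 lower (3 and 4 without syngeneic replicate 1, 4 and 4 without allogeneic replicate 3, 0 and 7 under upper quartile scaling), among them Fasn, the fatty acid synthase, by 0.86. Scd2, a fatty acid desaturase, fell by 0.76, and its relative Scd1 was lower by 2.26 (adjusted p = 0.0253), a call lost without syngeneic replicate 3 (0.122), without allogeneic replicate 1 (0.0752), without allogeneic replicate 2 (0.1) and with the 6 KO libraries alone (0.0619). Of 9 genes of the mitochondrial genome, 1 was lower (3 without allogeneic replicate 3, 0 without syngeneic replicate 3 or allogeneic replicate 2), mt-Nd1 of complex I, by 0.60 (adjusted p = 0.0221), a call lost without syngeneic replicate 3 (0.105), without allogeneic replicate 2 (0.0961) and with the 6 KO libraries alone (0.107). Of 13 amino acid transporters, 0 were higher and 2 lower (0 lower without syngeneic replicate 2, and 1 without syngeneic replicate 3, allogeneic replicate 2 or allogeneic replicate 3). Beside these counts stand 13.2% higher and 11.2% lower among all tested genes. Slc7a1, an arginine transporter, was lower by 0.62 (adjusted p = 0.0145), a call lost without syngeneic replicate 2 (0.0595) and with the 6 KO libraries alone (0.0733). Slc7a5, a leucine transporter, was lower by 0.56 (adjusted p = 0.0358), a call lost without syngeneic replicate 2 (0.122), without syngeneic replicate 3 (0.0962), without allogeneic replicate 2 (0.137), without allogeneic replicate 3 (0.0759) and with the 6 KO libraries alone (0.1).

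Interferon-stimulated genes were lower in allogeneic KO T cells. Of 25 type I interferon-stimulated genes, 13 fell and 1 rose (median -0.72). Without syngeneic replicate 1, 8 fell and 1 rose (median -0.40). The promoter of Ifit3, an antiviral protein of the IFIT family, holds the core of the interferon-stimulated response element (GAAANNGAA, either strand, in capitals) in the 150 bases before its start on GRCm38.p6, from RefSeq, shown because the gene was called lower and its window holds 2 matches.
Ifit3, chr19:34583379-34583528, plus strand: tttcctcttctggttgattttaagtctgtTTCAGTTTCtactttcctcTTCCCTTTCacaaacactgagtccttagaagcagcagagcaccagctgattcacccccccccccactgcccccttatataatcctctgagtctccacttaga
The core was in 8 of the 18 promoters of this list in the table (44.4%) and in 7.16% of all promoters, over 250 bases before the start. Among promoters of members called lower, 3 of 8 held the core (37.5%). The promoter of the 1 member called higher held it too, so the core did not set the members called lower apart. A further motif, TTCNNNGAA of STAT factors, was in 4 of 18 (22.2%) and in 7.18%. Ifit3 was at 33.6, 14.9 and 9.16 CPM in the syngeneic libraries and 5.42, 5.19 and 4.05 CPM in the allogeneic libraries (log2 fold change -1.98 ± 0.39 (SE), adjusted p = 0.00304). Usp18, which removes ISG15 and restrains the interferon receptor, was at 43.6, 30.2 and 17.02 CPM in the syngeneic libraries and 9.92, 8.44 and 5.73 CPM in the allogeneic libraries (log2 fold change -1.92 ± 0.31 (SE), adjusted p = 0.000667). Oasl1 was at 13.2, 8.903 and 6.84 CPM in the syngeneic libraries and 3.31, 2.802 and 2.27 CPM in the allogeneic libraries (log2 fold change -1.79 ± 0.23 (SE), adjusted p = 0.000115). In these 3 genes the syngeneic replicates themselves spread, with replicate 1 highest, and all lay above the allogeneic libraries. Oas2, Oasl2, Mx2 and Ifit2 fell by 1.97, 1.51, 1.67 and 0.92. Isg15 did not pass the test, at 32.6, 13.1 and 9.26 CPM in the syngeneic libraries and 10.2, 14.996 and 5.79 CPM in the allogeneic libraries (log2 fold change -0.83 ± 0.42 (SE), adjusted p = 0.178). The single rise was Ifih1, which encodes the RNA sensor MDA5, by 0.68 (adjusted p = 0.0283), a call lost without syngeneic replicate 2 (0.0805), without syngeneic replicate 3 (0.0725), without allogeneic replicate 1 (0.0864), without allogeneic replicate 2 (0.0585) and with the 6 KO libraries alone (0.0943).

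Of 17 interferon gamma-induced GTPase genes, 8 fell and 0 rose. Tgtp1 was at 37.4, 23.4 and 11.4 CPM in the syngeneic libraries and 4.67, 5.29 and 3.59 CPM in the allogeneic libraries (log2 fold change -2.41 ± 0.37 (SE), adjusted p = 0.000465), and Gbp9 at 93.6, 93.3 and 62.7 CPM in the syngeneic libraries and 38.1, 39.8 and 44.5 CPM in the allogeneic libraries (log2 fold change -1.03 ± 0.16 (SE), adjusted p = 0.000414). Gbp10, Gbp6 and Gbp4 fell by 2.30, 1.15 and 0.73. These genes lie in clusters of similar sequence, so reads may be split between them. Without syngeneic replicate 3 the number lower was 15, and without syngeneic replicate 1 it was 8, with 2 higher. Ifng itself rose in the same libraries, as given above. None of 13 MHC class I genes was called (4 higher without syngeneic replicate 1), with Tap1, the peptide transporter, at a log2 fold change of 0.37. H2-K1, a classical class I heavy chain, was at 2203, 1729 and 1553 CPM in the syngeneic libraries and 1810.4, 2087 and 1561 CPM in the allogeneic libraries, with overlapping groups (log2 fold change -0.01 ± 0.17 (SE), adjusted p = 0.981, sign not stable, as listed with the alternatives).

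Genes of cell death moved on both sides. Of 15 BCL-2 family genes, 8 were higher and 1 lower. In the list of p53 and its direct targets, 8 of 19 genes were higher and 4 lower. Pmaip1, which encodes the killer protein NOXA, was at 11.6, 11.02 and 8.75 CPM in the syngeneic libraries and 36.6, 46.7 and 42.2 CPM in the allogeneic libraries (log2 fold change 2.00 ± 0.14 (SE), adjusted p = 9.71e-07). Bcl2l11, which encodes BIM, was at 63.3, 66.96 and 62.4 CPM in the syngeneic libraries and 124, 129 and 180.3 CPM in the allogeneic libraries (log2 fold change 1.17 ± 0.16 (SE), adjusted p = 0.000164). Bcl2, the founding survival gene, was at 258, 279 and 291 CPM in the syngeneic libraries and 134, 126 and 146 CPM in the allogeneic libraries (log2 fold change -1.03 ± 0.13 (SE), adjusted p = 7.39e-05). The killer genes were higher and Bcl2 lower in every allogeneic library. Bmf and Bak1, also killer genes, rose by 1.70 and 0.72, and the survival genes Bcl2a1b and Bcl2a1d, near-identical copies, by 1.62 and 1.86. Perp, Sesn2 and Polk rose by 2.58, 1.10 and 0.75, while Trp53 itself fell by 0.59 and Tnfrsf10b by 1.33.

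Of 19 early genes downstream of the T cell receptor, 2 were higher and 2 lower, a smaller share each way than the 13.2% higher and 11.2% lower among all tested genes. The number lower was 4 without syngeneic replicate 3, and 1 without syngeneic replicate 1 or 2 or allogeneic replicate 1 or 3. Nr4a2, an orphan nuclear receptor, was at 10.5, 9.07 and 6.703 CPM in the syngeneic libraries and 27.6, 25.7 and 23.9 CPM in the allogeneic libraries (log2 fold change 1.56 ± 0.19 (SE), adjusted p = 6.85e-05), and Dusp2 rose by 0.80. Jun, an AP-1 subunit, was lower by 1.93 (adjusted p = 0.039), with syngeneic replicate 1 at 272 CPM against 107 and 70.3 CPM in the other syngeneic libraries, and its call was lost without syngeneic replicate 1 (0.131), without syngeneic replicate 2 (0.0603), without allogeneic replicate 1 (0.0729), without allogeneic replicate 3 (0.102), with the 6 KO libraries alone (0.144) and with no filter on low counts (0.0906). The summed level of the list was 2837, 1162 and 922 CPM in syngeneic and 959, 1273 and 869.5 CPM in allogeneic KO libraries.

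Among lineage genes of helper and killer T cells, neither coreceptor gene passed the test. Cd4 was at 285, 205 and 176 CPM in the syngeneic libraries and 385, 312 and 209 CPM in the allogeneic libraries (log2 fold change 0.44 ± 0.23 (SE), adjusted p = 0.182) and was called higher without syngeneic replicate 1 (0.0341) and without allogeneic replicate 3 (0.036). Cd8a was at 801, 608 and 523 CPM in the syngeneic libraries and 372, 497 and 506 CPM in the allogeneic libraries (log2 fold change -0.49 ± 0.18 (SE), adjusted p = 0.0708) and was called lower without syngeneic replicate 3 (0.0452) and under upper quartile scaling (0.0273). The Cd8a groups did not overlap, the Cd4 groups did, and the fitted values of the coreceptor genes had opposite signs. Of 15 alpha beta T cell and CD3 genes, 1 was higher and 1 lower (6 higher and 0 lower without syngeneic replicate 1, 2 and 0 without allogeneic replicate 3, 0 and 0 without allogeneic replicate 1, 0 and 1 without syngeneic replicate 2 or 3). Zap70, the kinase recruited by the receptor, was higher by 0.65 (adjusted p = 0.0194), a call lost without syngeneic replicate 2 (0.0808), without syngeneic replicate 3 (0.0847), without allogeneic replicate 1 (0.0514) and with the 6 KO libraries alone (0.0618). Cd6 was lower by 0.49 (adjusted p = 0.023), a call lost without syngeneic replicate 1 (0.0938), without allogeneic replicate 1 (0.0782), without allogeneic replicate 3 (0.0648) and with the 6 KO libraries alone (0.076). Of 6 CD4 lineage genes, 4 were higher and 1 lower. Zbtb7b, which encodes the CD4 lineage factor ThPOK, was at 60.4, 60.7 and 62.2 CPM in the syngeneic libraries and 169, 136 and 122 CPM in the allogeneic libraries (log2 fold change 1.22 ± 0.13 (SE), adjusted p = 2.84e-05). Trat1, a receptor-associated adaptor, fell by 1.60, and Cd40lg, the CD40 ligand of helper cells, was higher by 0.79 (adjusted p = 0.018), a call lost without syngeneic replicate 3 (0.0715), without allogeneic replicate 1 (0.0845) and with the 6 KO libraries alone (0.0696). Of 8 CD8 lineage genes, 2 were higher, 1 was lower and 5 did not pass the test (2 lower without syngeneic replicate 3 or under upper quartile scaling, and 5 higher by DESeq2). So few genes do not set these counts apart from the 13.2% higher and 11.2% lower among all tested genes. Klrc1 and Klrk1, NKG2 receptors of cytotoxic cells, rose by 3.05 and 2.53, and Eomes fell by 1.14. Of 13 NK and NKT genes, 3 rose and 5 fell. Klrb1c, which encodes NK1.1, rose by 2.44 and Ncr1, which encodes NKp46, by 4.32 from a low level, whereas the Ly49 genes Klra4, Klra7 and Klra3, similar in sequence, fell by 5.12, 2.27 and 2.15. The 13 NK and NKT genes together summed to 19.3, 23.8 and 34.6 CPM in syngeneic and 55.4, 108 and 55.7 CPM in allogeneic libraries. Gamma delta T cell genes had 2 of 10 higher and 4 lower. Sox4 fell by 2.55 and Cd163l1, which encodes SCART1, by 2.09, as did 5830411N06Rik by 4.43, while the gamma chain segments Trgv2 and Tcrg-C2 rose by 2.34 and 1.95. Trdc, the delta constant gene, was at 5.99, 6.19 and 6.21 CPM in the syngeneic libraries and 1.41, 2.89 and 4.297 CPM in the allogeneic libraries (log2 fold change -1.09 ± 0.31 (SE), adjusted p = 0.023), and its call was lost without syngeneic replicate 2 (0.0617), without syngeneic replicate 3 (0.055), without allogeneic replicate 2 (0.07) and with the 6 KO libraries alone (0.0999). Of 89 tested T cell receptor V segments, 7 were higher and 7 lower, a smaller share each way than the 13.2% higher and 11.2% lower among all tested genes. Without syngeneic replicate 1 the numbers of V segments higher and lower were 11 and 2. The number higher was 3 without syngeneic replicate 2, and 4 without syngeneic replicate 3 or without allogeneic replicate 2. The number lower was 2 without syngeneic replicate 2 or allogeneic replicate 1, 4 without syngeneic replicate 3 or allogeneic replicate 3, and 3 without allogeneic replicate 2.

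Markers of other cells were present in the sorted libraries and varied within groups. B cell markers summed to 547, 1704 and 2815 CPM in syngeneic and 476, 986 and 3247 CPM in allogeneic KO libraries, with 1 of 14 members called higher and 2 lower (0 higher without syngeneic replicate 1 or 2 or allogeneic replicate 1, and 1 lower without syngeneic replicate 2 or 3 or allogeneic replicate 1 or 2). A list this small does not set these counts apart from the 13.2% higher and 11.2% lower among all tested genes. Immunoglobulin V segments summed to 8.78, 351 and 623 CPM and 40.9, 169.8 and 788 CPM, with 11 of 170 higher and 0 lower, a smaller share each way than among all tested genes (7 and 8 without syngeneic replicate 1, 21 and 1 without allogeneic replicate 1, 4 and 0 without allogeneic replicate 3). Replicate 1 was lowest in both groups, and the groups overlapped. Cd22, a B cell lectin, fell by 1.47. Pax5, the B lineage factor, was higher by 2.83 (adjusted p = 0.0333), a call lost without syngeneic replicate 1 (0.0776), without syngeneic replicate 2 (0.12), without allogeneic replicate 1 (0.178), with the 6 KO libraries alone (0.075) and with no filter on low counts (0.0576), and Spib lower by 1.72 (adjusted p = 0.0374), a call lost without syngeneic replicate 2 (0.0788), without syngeneic replicate 3 (0.165), without allogeneic replicate 1 (0.0778), without allogeneic replicate 2 (0.102) and without allogeneic replicate 3 (0.0735). Of 10 plasma cell genes, 3 were higher, with Xbp1 up by 0.83 and Irf4, also a factor of activated T cells, up by 0.43 (adjusted p = 0.0173), a call lost without syngeneic replicate 3 (0.0689), without allogeneic replicate 1 (0.0611), with the 6 KO libraries alone (0.0856) and under upper quartile scaling (0.109). Myeloid markers summed to 41.5, 176 and 394 CPM and 249, 399 and 364 CPM, with 4 of 19 higher and 0 lower (8 higher without syngeneic replicate 3, 7 higher without allogeneic replicate 1). Cd68, a lysosomal protein of macrophages, was at 3.82, 4.66 and 6.25 CPM in the syngeneic libraries and 21.7, 24.2 and 22.3 CPM in the allogeneic libraries (log2 fold change 2.21 ± 0.20 (SE), adjusted p = 5.85e-06). Itgam, which encodes CD11b, rose by 3.02 and Hmox1, the haem-degrading enzyme of macrophages, by 1.61. Cd14, a monocyte receptor, was higher by 1.86 (adjusted p = 0.0232), a call lost without syngeneic replicate 1 (0.0578), without syngeneic replicate 2 (0.0623), without allogeneic replicate 2 (0.0561), without allogeneic replicate 3 (0.052) and with the 6 KO libraries alone (0.0506). S100a8, a neutrophil and monocyte calprotectin gene, was at 0.442, 0.344 and 7.58 CPM in the syngeneic libraries and 1.64, 60.9 and 39.4 CPM in the allogeneic libraries and did not pass the test (adjusted p = 0.0721, with calls without syngeneic replicate 3 (0.0179), without allogeneic replicate 1 (0.0188) and by DESeq2 (0.0188)). Chil3, named above among the rises, was likewise high in allogeneic replicates 2 and 3, at 50.96 and 46.8 CPM, and at 4.29 CPM in replicate 1. The part of these myeloid markers in its rise was not tested.

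The list of dendritic cell and MHC class II genes had 5 of 11 members higher and 0 lower. Its median log2 fold change was 0.10, with fitted values from -2.90 to 3.90, 7 above 0 and 4 below. H2-Ab1, a class II beta chain, was at 1.03, 2.84 and 3.93 CPM in the syngeneic libraries and 11.1, 11.4 and 12.8 CPM in the allogeneic libraries (log2 fold change 2.18 ± 0.48 (SE), adjusted p = 0.00674). Itgax, which encodes CD11c of dendritic cells and of some activated T cells, was at 8.92, 13.99 and 14.5 CPM in the syngeneic libraries and 111, 185 and 264 CPM in the allogeneic libraries (log2 fold change 3.90 ± 0.33 (SE), adjusted p = 5.94e-06). H2-Aa was higher by 2.17 (adjusted p = 0.022), a call lost without syngeneic replicate 2 (0.0759), without allogeneic replicate 1 (0.0504), without allogeneic replicate 3 (0.0616) and with no filter on low counts (0.0558). H2-Eb1, an MHC class II chain, was higher by 2.02 (adjusted p = 0.044), a call lost without syngeneic replicate 1 (0.0653), without syngeneic replicate 2 (0.143), without allogeneic replicate 1 (0.0668), without allogeneic replicate 2 (0.0835), without allogeneic replicate 3 (0.105), with the 6 KO libraries alone (0.0636), under upper quartile scaling (0.0658) and with no filter on low counts (0.0998). The summed level of the list was 36.4, 63.1 and 92.97 CPM in syngeneic and 183, 241 and 348 CPM in allogeneic libraries. Itgax, at the values above, made up most of each allogeneic sum. Of the list, 3 members were called higher without syngeneic replicate 2, allogeneic replicate 1 or allogeneic replicate 3, with 2 lower without syngeneic replicate 1 and 1 lower without allogeneic replicate 3. Erythroid markers summed to 97.7, 125 and 276 CPM and 93.3, 114 and 113 CPM, with 0 of 14 higher and 2 lower (4 lower without syngeneic replicate 2, 1 without syngeneic replicate 3 or allogeneic replicate 1 or 2, 0 without allogeneic replicate 3). By DESeq2, 5 were lower. Beside the main counts stand 13.2% higher and 11.2% lower among all tested genes. Hbb-bs, an adult beta globin, was at 8.72, 5.05 and 24.7 CPM in the syngeneic libraries and 2.51, 3.37 and 1.68 CPM in the allogeneic libraries (log2 fold change -2.35 ± 0.58 (SE), adjusted p = 0.0153, and 0.058 without allogeneic replicate 3). Hba-a2, an alpha globin, was lower by 2.21 (adjusted p = 0.036), a call lost without syngeneic replicate 1 (0.052), without syngeneic replicate 3 (0.114), without allogeneic replicate 1 (0.083), without allogeneic replicate 2 (0.0661), without allogeneic replicate 3 (0.114), with the 6 KO libraries alone (0.0571) and with no filter on low counts (0.0839). Of 6 platelet and 6 stroma and endothelium genes, none was called.

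**Figure D4:**
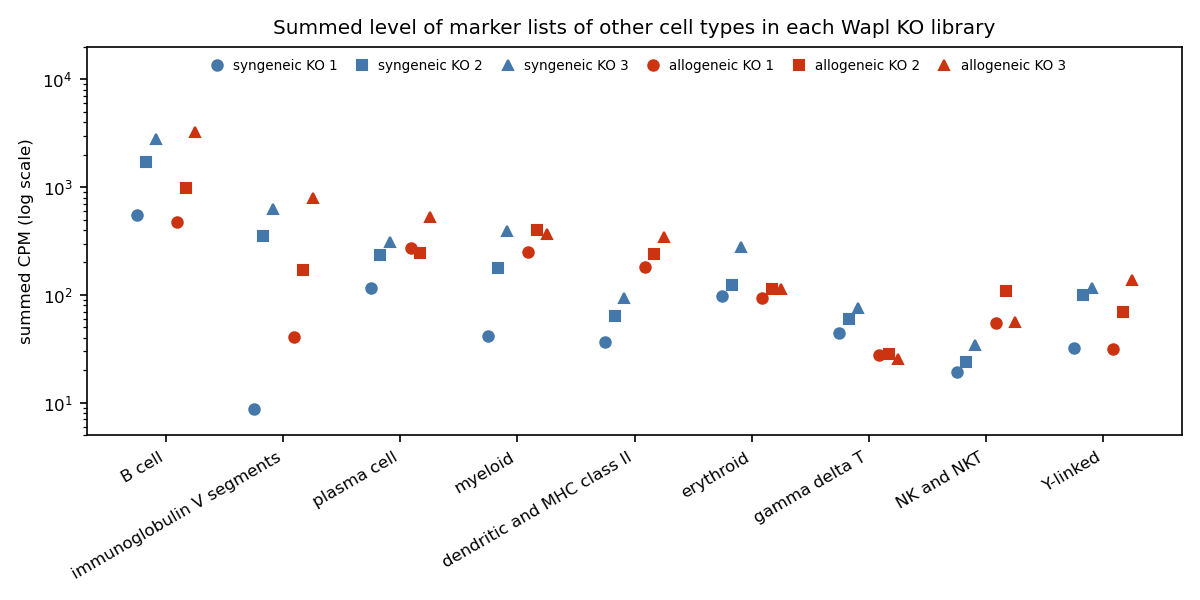
Summed level of 9 marker lists in CPM (log axis) in the 3 syngeneic (blue) and 3 allogeneic (red) Wapl KO libraries, with circles, squares and triangles for replicates 1, 2 and 3. Circles are lowest in both colours for all lists but those of plasma cells and gamma delta T cells. The red points lie above the blue ones for dendritic and MHC class II genes and for NK and NKT genes, and below them for gamma delta T cell genes.

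The same contrast in WT T cells, from 6 other libraries, called 3023 genes (16.4%) higher and 2932 (15.9%) lower. Of the genes called in KO, 2007 were also higher in WT, which is 82.3% of the KO list and 66.4% of the WT list, and 1564 were also lower in WT, 75.9% and 53.3%. Across the tested genes, which are not independent replicates, Pearson's r of the fold changes was 0.769. The difference between the KO and the WT contrast passed the test for 88 genes (0.477%), 79 (0.428%) with a higher and 9 (0.0488%) with a lower value in KO. By DESeq2 these numbers were 245 and 49, and leaving out single KO libraries gave 29 to 85 and 2 to 11. The unadjusted p was under 0.05 for 1144 genes. Each KO library was above each WT library in the summed Y-linked level given above, and the sex of the cells that gave those transcripts cannot be told apart from genotype in this comparison.

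Lag3 rose less in KO than in WT. The WT libraries were at 8.25, 7.495 and 8.36 CPM in the syngeneic and 196, 186 and 198 CPM in the allogeneic group, a log2 fold change of 4.59 ± 0.13 (SE). The difference was -1.41 ± 0.16 (SE), adjusted p = 0.00291. Syngeneic KO libraries, at 22.2 to 26.2 CPM, lay above syngeneic WT libraries. Zbtb32, a zinc finger repressor of activated lymphocytes, showed the same order. Its KO libraries were at 20.5, 20.4 and 18.4 CPM in the syngeneic libraries and 74.6, 77.1 and 73.7 CPM in the allogeneic libraries, its WT libraries at 6.64, 5.72 and 6.85 CPM and 51.6, 52.3 and 64.9 CPM, and the difference was -1.21 ± 0.17 (SE), adjusted p = 0.00691. Both calls held without each KO library in turn. Egr2, an early factor of receptor signalling, was at 15.4, 15.7 and 15.9 CPM in the syngeneic libraries and 18.04, 16.1 and 12.98 CPM in the allogeneic libraries in KO, and at 11.5, 9.89 and 9.83 CPM (syngeneic) and 27.8, 19.9 and 24.4 CPM (allogeneic) in WT. The WT groups did not overlap and the KO groups did, and the difference was -1.20 ± 0.22 (SE), adjusted p = 0.0347, a call lost without syngeneic replicate 1 (0.0662), 2 (0.105) or 3 (0.0589) and without allogeneic replicate 2 (0.0693) or 3 (0.0769). Zbtb32 and Egr2 were chosen after their values were seen.

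The 79 genes with a higher value in KO held 8 of the 14 erythroid genes. Alas2, the first enzyme of haem synthesis in red cells, was at 128, 292 and 247 CPM in syngeneic WT and at 1.25, 0.804 and 1.22 CPM in allogeneic WT, and at 1.61, 1.24 and 4.32 CPM in the syngeneic libraries and 0.586, 0.834 and 1.16 CPM in the allogeneic libraries in KO. Its difference was 6.26 ± 0.72 (SE), adjusted p = 0.00583. Rsad2, an interferon-stimulated gene that encodes viperin, was at 80.2, 159.8 and 132 CPM in syngeneic WT and 4.39, 5.79 and 7.098 CPM in allogeneic WT, against 13.8, 8.61 and 6.64 CPM in the syngeneic libraries and 5.79, 4.37 and 4.14 CPM in the allogeneic libraries in KO, with a difference of 3.40 ± 0.43 (SE), adjusted p = 0.00583. The erythroid markers move with this difference, and their part in it was not tested.

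**Figure D5:**
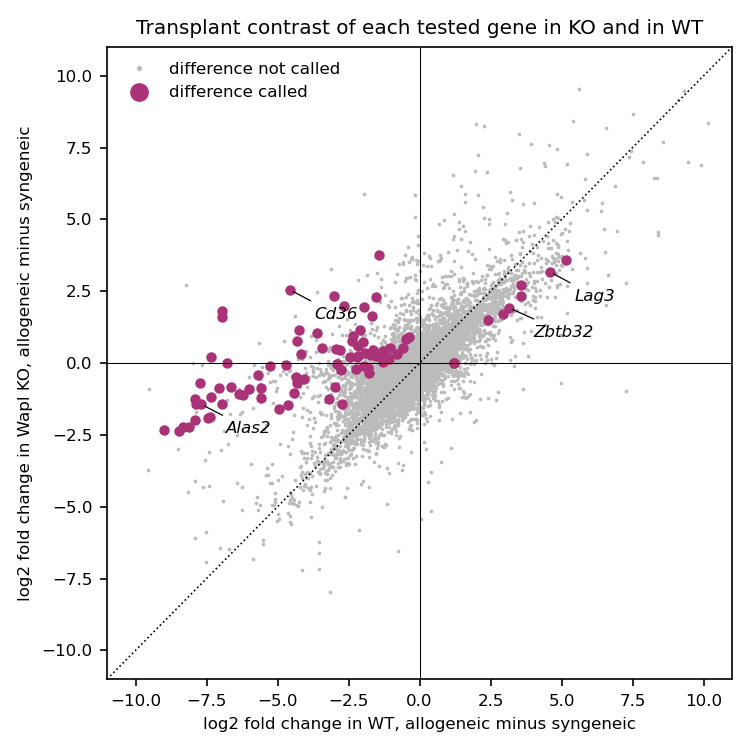
Log2 fold change of the transplant contrast in Wapl KO (vertical) against WT (horizontal) for each of the 18447 tested genes, with the 88 genes whose difference passed the test as large points and equal values on the dotted line. Most points follow the line (r = 0.769), Lag3 and Zbtb32 lie below it, and Alas2 and Cd36 lie above it on the left.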

How the data were processed

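Total RNA of sorted donor T cells was sequenced from 100 ng with the KAPA HyperPrep kit and ribosomal RNA depletion, per the labels' protocols. Per the submitters' processing notes, the build was GRCm38 and the tools included Cufflinks with Cuffdiff 2.2.1, TopHat2 2.0.13 and Bowtie2 2.2.1. The counter behind the deposited table and its strand setting are not given in the sources used here. The authors deposited gene-level expected counts, which need not be whole, so they were rounded. Column names tied 12 columns to labelled samples, and 6 other columns of per-sample values were not used. Their names put allo before the identifiers of the 6 allogeneic samples, and what they hold beyond the matched columns is not given in the sources used here. Of 46073 gene identifiers, 45139 matched GENCODE M21.

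edgeR 4.0.16 (R 4.3.3) was run with TMM scaling, a filter (filterByExpr, count minimum 10) that kept 18447 genes, and a robust quasi-likelihood fit of 12 libraries with 1 mean for each of 4 groups. The contrasts were allogeneic minus syngeneic in KO, the same in WT, and their difference. The 3 libraries of a group are independent pools, per the labels. P-values were adjusted by the Benjamini-Hochberg method across every tested gene, and a gene was called below 0.05. The SE of a log2 fold change was its size divided by the square root of its F statistic. The biological coefficient of variation was 0.249. CPM were computed on TMM-adjusted library sizes, are not divided by gene length, and are compared between libraries only. The fit was also run on simulated counts that held no outlying library, so that run does not check it on libraries as uneven as these. A share of tested genes is a background for a list, not a test of it.

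The compared libraries and the gene lists were chosen with earlier results of these data known. Genes named were Wapl, the 12 greatest and 6 most significant changes each way (at least 5 CPM in the higher group, no overlap), list members led by the 5 smallest p, landmark genes fixed by name, and up to 10 genes of the difference between KO and WT. The greatest and most significant changes were taken after leaving out predicted and clone-named genes, receptor and immunoglobulin segments, and ribosomal and small RNAs. Other list members were added for their function after their values were seen. Some genes that these rules name are not reported here. Alternatives were RLE and upper quartile scaling, no filter, DESeq2 1.42.0, the 6 KO libraries alone, a replicate block, removal of the ribosomal RNA genes and leaving out each KO library. Promoter sequences were read from RefSeq (GRCm38.p6).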

Additional observations from a re-analysis of the deposited data

Results flagged for a closer look

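The allogeneic minus syngeneic log2 fold change differed between KO and WT, by the edgeR test of the difference itself with Benjamini-Hochberg adjustment, for each gene named here. The value given is the fold change in KO minus that in WT. It was below 0 for Lag3 (-1.41), Maf (-1.26), Zbtb32 (-1.21), Egr2 (-1.20) and St14 (-0.85). The call for Maf was lost without allogeneic replicate 2 (0.0618), without syngeneic replicate 1 (0.0707) and without syngeneic replicate 2 (0.0686). The call for St14 was lost without allogeneic replicate 1 (0.0734), without allogeneic replicate 3 (0.0786), without syngeneic replicate 1 (0.081), without syngeneic replicate 2 (0.122) and without syngeneic replicate 3 (0.0528).

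The difference was above 0 for Apol10a (8.77), Apol11b (7.56), Cd36 (7.12), Alas2 (6.26), Hbb-bs (6.13), Hba-a2 (6.11), Fhdc1 (4.36), Slc25a37 (3.50), Rsad2 (3.40), Itsn1 (3.32), Cdr2 (2.51), Ube2o (1.86) and Xpo7 (1.68). In all 13 genes each syngeneic WT library was above each library of the other 3 groups. Slc25a37, which encodes the iron importer mitoferrin of red cell precursors, was at 231, 584 and 483 CPM in syngeneic WT, 21.5, 27.8 and 28.3 CPM in allogeneic WT, and 25.3, 34.8 and 38.1 CPM in the syngeneic libraries and 21.9, 18.5 and 25.98 CPM in the allogeneic libraries of KO. Apol11b was at 43.96, 82.5 and 97.7 CPM in syngeneic WT and under 1 CPM in every other library. Of these 13 genes, Alas2 lost its call without allogeneic replicate 3 (0.0577) and so did Hbb-bs without allogeneic replicate 2 (0.0755), without allogeneic replicate 3 (0.0545) and without syngeneic replicate 1 (0.0662) and Hba-a2 with no filter on low counts (0.0741), without allogeneic replicate 1 (0.0581), without allogeneic replicate 2 (0.255), without allogeneic replicate 3 (0.117) and without syngeneic replicate 1 (0.0892).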

How the results depend on the processing

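Of 234 genes named, 178 kept direction and side of the threshold under every alternative. The numbers of genes higher and lower in allogeneic KO were 1489 and 1180 with the 6 KO libraries alone, where 4 residual degrees of freedom replace 8, and 1620 to 3277 and 1442 to 2417 with each KO library left out. For the difference between KO and WT, DESeq2 called 245 higher and 49 lower, and leaving out a KO library gave 29 to 85 and 2 to 11. The cause of these shifts was not tested. The share in ribosomal RNA genes stayed lower in the allogeneic group, by -11.15 to -7.096 percentage points.

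Same-numbered syngeneic and allogeneic KO libraries deviated together for numbers 1 and 3 (r = 0.235 and 0.423) but not for number 2 (r = -0.317), and not every library correlated best with its own number, so the numbers were not taken as pairs. With the replicate block in 12 libraries, 2523 genes were higher and 2107 lower, and the difference was called for 54 and 10. With the block within the 6 KO libraries, 1259 were higher and 1007 lower. Of 208 named genes called, 5 lost the call with the block in 12 libraries and 26 with the block in the 6 KO libraries. The difference between KO and WT lost its call with the block in 12 libraries for Hbb-bs (0.0534) and Hba-a2 (0.0957).

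Values near 0 changed sign, none of them called. Under upper quartile scaling the log2 fold change was -0.12 for Egr2, -0.0084 for Top2a and -0.051 for Wapl (Wapal). For Egr2 it was -0.0083 with the replicate block in 12 libraries, -0.0092 with the block in the 6 KO libraries, and -0.10 to 0.13 with each KO library left out. Over the same removals it was -0.065 to 0.24 for Top2a and -0.16 to 0.093 for Nipbl. H2-K1, at -0.01, was 0.0027 with no filter on low counts, 0.0023 with the replicate block in 12 libraries, 0.0034 without the ribosomal RNA genes, 0.0044 by DESeq2 and -0.11 to 0.19 with each KO library left out. Depth limits genes at a few CPM, such as Csf2 and Il4, and 3 libraries per group limit small changes.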
